A study of Mus musculus with 36 samples.

Results

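The genes described here are 8 genes of major histocompatibility complex (MHC) class II antigen presentation: H2-Aa, H2-Ab1, H2-Eb1, H2-DMa, H2-DMb1, Cd74, Ciita and Ctss. They were followed by every probe set of an Affymetrix whole-genome mouse expression array whose platform annotation gives a single symbol among these 8. This gave 15 of 45037 probe sets, for 7 of the 8 genes and of 18193 genes with such a probe set. H2-DMb1 has only probe sets shared with its neighbour H2-DMb2, so no value is given for it. Whole left-lung RNA was measured in 36 male mice aged 7 to 13 weeks, 1 mouse per array. The mice came from 3 genotypes: Notch4-/- and Notch3-/-, which lack either gene and were kept as lines of mixed B6 background, and WT (B6129SF1/J). Within each genotype 3 mice breathed filtered air, and 3 mice each were killed after 6, 24 or 48 hr of continuous whole-body exposure to 0.3 ppm ozone, an oxidant air pollutant. Each genotype has 1 air group, which served as the control for all 3 ozone times, and the 2 knockout lines share the WT mice as controls. Both deletions are present in every cell of the animal. The WT mice are first-generation hybrids and the knockout lines are not, so an effect of the deleted gene and an effect of strain background cannot be told apart.

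MHC class II molecules are pairs of an alpha and a beta chain that carry peptides from the endosome to the cell surface, where CD4 T cells read them. In the lung they are known from dendritic cells, B cells, macrophages and alveolar type 2 cells. H2-Aa and H2-Ab1 encode the alpha and beta chains of the A molecule, and H2-Eb1 encodes the beta chain of the E molecule. Cd74 encodes the invariant chain, which fills the peptide groove of new molecules, and Ctss encodes cathepsin S, the protease that trims it away. H2-DMa and H2-DMb1 encode the 2 chains of H2-DM, which exchanges the remaining fragment for peptides. Ciita encodes the class II transactivator, a protein that binds no DNA itself and switches on these genes through factors bound to a shared promoter element.

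The class II chain genes lie near one of the deleted genes. H2-Eb1, H2-Aa, H2-Ab1, H2-DMb1 and H2-DMa are on chromosome 17, as are Notch4 and Notch3. In the RefSeq annotation 6, 7, 8, 14 and 16 protein-coding genes, in that order, lie between them and Notch4, and 75, 74, 73, 67 and 65 lie between them and Notch3. Cd74, Ciita and Ctss lie on other chromosomes.

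The promoter element is shown because Ciita acts through it, and it is printed for the members in which it was found. It has an X box, whose start is searched here as GNAAC, and a Y box, searched as GATTGG, the letters bound by NF-Y. RefSeq promoter windows of build GRCm38.p6, with 250 bases before and 50 bases after the start of a gene, were found for 5 of the 8 genes. The pair, GNAAC followed by GATTGG with 20 to 40 bases between them on the same strand, was searched on both strands, and the spacing was set after these windows had been read. It was present in H2-Aa, H2-Eb1 and H2-DMb1, 3 of the 5 genes, against 383 of 32851 windows (1.17%) across the genome. In these lines capitals mark first GNAAC and then GATTGG. The stretches printed, which hold the pair, are chr17:34287859-34287912 on the minus strand for H2-Aa, chr17:34305768-34305820 on the plus strand for H2-Eb1 and chr17:34153089-34153142 on the plus strand for H2-DMb1.
H2-Aa: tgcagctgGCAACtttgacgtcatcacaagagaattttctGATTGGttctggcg
H2-Eb1: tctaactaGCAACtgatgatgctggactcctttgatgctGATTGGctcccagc
H2-DMb1: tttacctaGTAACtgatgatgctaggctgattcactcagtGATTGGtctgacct
Between the 2 motifs lie 27 bases in H2-Aa, 26 in H2-Eb1 and 27 in H2-DMb1. GATTGG alone, on either strand, was in the windows of 4 of the 5 genes, H2-DMa being the fourth, and in 5292 of all windows (16.1%). The pair was not in the window of Ctss or in either window of H2-DMa. Of 4 other class II genes with a window it was in H2-Oa, H2-Ob and H2-Eb2. A match describes the letters of the window and shows no binding.

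The deposited values are log2 intensities after robust multiarray averaging (RMA). Each probe set was found to be centred on its median over the 36 arrays, so a level given here is a log2 distance from that median. Such levels can be compared between mice but not between genes, and they do not show whether a gene or a cell type marker was detected. The deleted genes set the labels against the data. Notch3 (1421965_s_at) lay between -4.51 and -3.13 in Notch3-/- lungs and between -0.53 and 0.60 in WT lungs, and its other probe set (1421964_at) lay between -2.43 and -1.71 and between -0.37 and 0.88 in the same groups. Notch4 (1449146_at) lay between -4.31 and -1.40 in Notch4-/- lungs and between -0.38 and 0.58 in WT lungs. A second Notch4 probe set (1456263_at) lay between -0.82 and -0.19 in Notch4-/- lungs and between -0.14 and 0.58 in WT lungs. The remaining one (1436901_at) did not separate them, with levels between -0.23 and 0.16 in Notch4-/- lungs and between -0.31 and 0.25 in WT lungs, and whether these probes lie in the deleted part was not tested. By 1449146_at Notch4-/- air mice 1 and 2, at -1.97 and -1.40, stood apart from the other 10 Notch4-/- mice, which were at -3.42 or below. The main class II results are therefore also given without these 2 arrays. Such a fit leaves mouse 3 alone in the Notch4-/- air group, and its p-values assume that this mouse varies as those of the other groups do. In bulk lung RNA, fewer cells of a type and less RNA per cell cannot be told apart.

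Across the 12 groups most probe sets of the class II chain genes had their lowest mean in the same group. The lowest group mean was that of Notch4-/- mice after 48 hr of ozone for 9 of the 15 probe sets: 3 of the 4 for H2-Aa, all 3 for H2-Ab1, and those for H2-Eb1, Cd74 and Ciita (1421211_a_at). The highest was that of WT air mice for all 3 probe sets of H2-Ab1 and for H2-Eb1 and H2-Aa (1452431_s_at). In the Notch4-/- 48 hr group, mouse 2 had the largest SD of any array (0.426). How often this group had the lowest mean over all probe sets was not counted. The 9 probe sets therefore have no background to be set against, and several of their genes varied together from mouse to mouse. For H2-Eb1 the mean level was -0.37 in Notch4-/- mice after 48 hr of ozone and 0.20 in WT air mice, a span of 0.57 on the log2 scale. The span over the 15 probe sets ran from 0.40 log2 for H2-Aa (1435290_x_at) to 0.91 log2 for Ctss, with a median of 0.62 log2, against a median of 0.43 log2 and quartiles of 0.32 and 0.63 log2 over all probe sets. When the 12 groups were put in order of their means, the mice of neighbouring groups overlapped in 10 or 11 of the 11 neighbouring pairs for every probe set. Such an order sets groups with close means side by side, so this overlap says little about these genes. For Ctss the single gap lay at the top, between Notch3-/- mice after 48 hr of ozone (0.40 to 0.58) and Notch3-/- mice after 24 hr (0.17 to 0.36). The plot of levels by mouse shows this order for 8 probe sets.

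**Figure D1:**
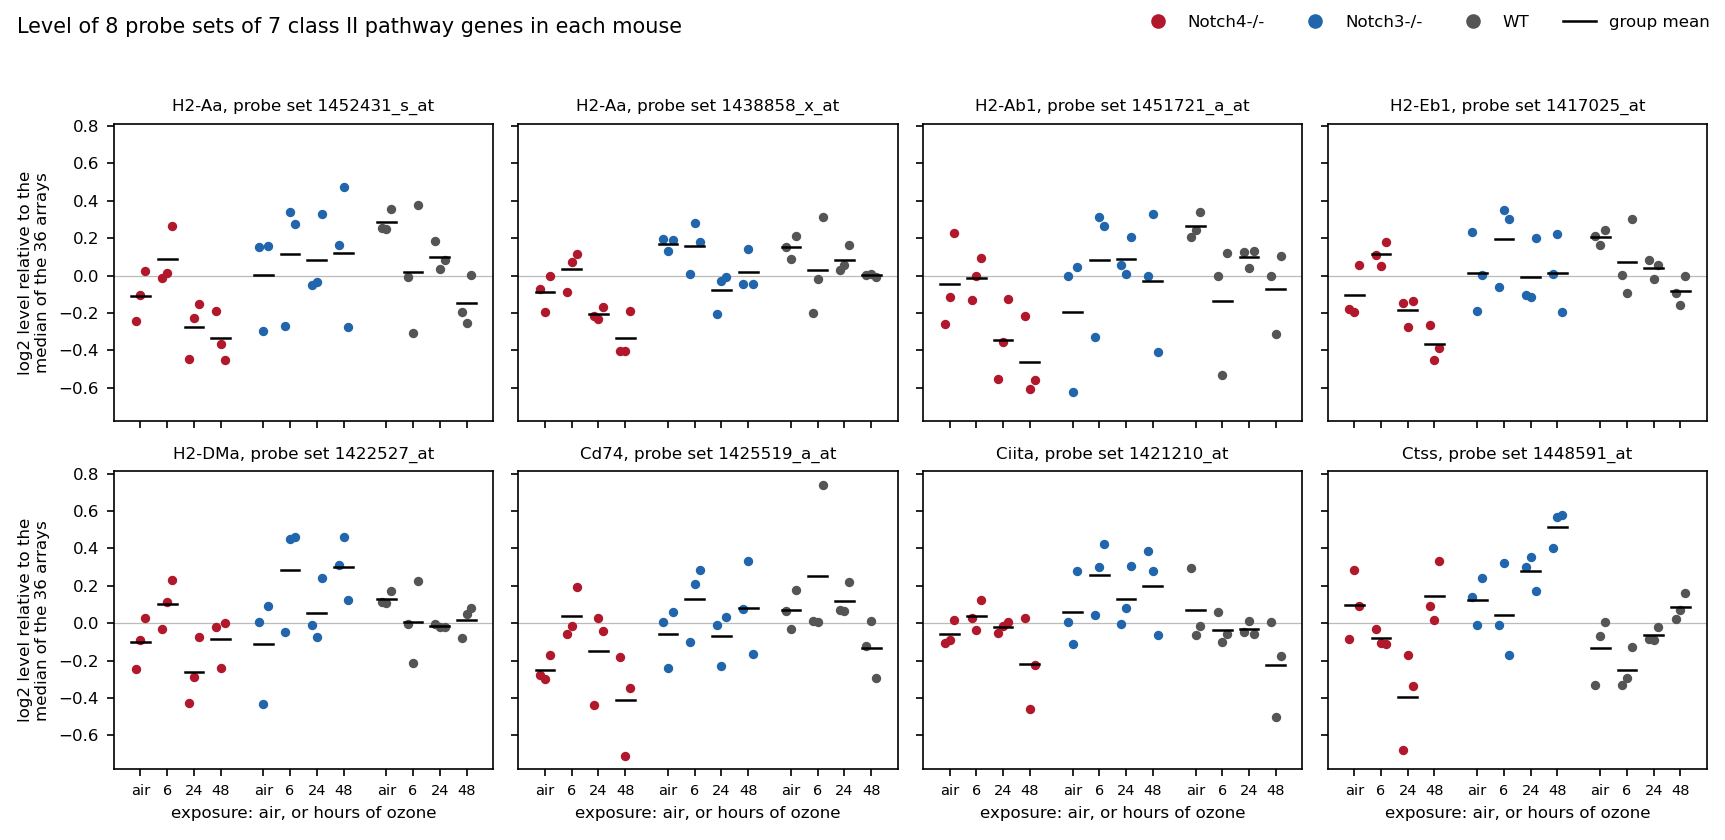
Level of 8 probe sets in each of 36 mice (y axis, log2 relative to the median of the 36 arrays) by genotype and exposure (x axis, air or hours of ozone), with a line at each group mean of 3 mice. For H2-Eb1 the 3 Notch4-/- mice at 48 hr lie between -0.45 and -0.26 and the 3 WT air mice between 0.16 and 0.24, and for Ctss the 3 Notch3-/- mice at 48 hr lie between 0.40 and 0.58.

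H2-Aa was lower in Notch4-/- lungs than in WT lungs over air and all ozone times combined, and Cd74, H2-Eb1 and H2-Ab1 lay below WT by similar amounts without passing the test. The test was limma on 12 group means, with Benjamini-Hochberg adjustment over all 45037 probe sets and a threshold of 0.05. By H2-Aa probe set 1438858_x_at the lowest, median and highest levels were -0.40, -0.18 and 0.12 in 12 Notch4-/- mice, against -0.20, 0.04 and 0.31 in 12 WT mice. The genotypes overlapped, and the Notch4-/- median lay close to the lowest WT mouse. The difference was -0.22 log2 (SE 0.0502, 95% interval -0.32 to -0.11, adjusted p = 0.00735 by limma), and -0.19 log2 (adjusted p = 0.0400) without Notch4-/- air mice 1 and 2. This was 1 of 15 probe sets, against 5.76% of all probe sets, and it passed when any 1 of the 24 arrays was left out.

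The other 3 probe sets of H2-Aa differed by -0.13 (1435290_x_at, adjusted p = 0.0524), -0.17 (1443783_x_at, 0.249) and -0.22 log2 (1452431_s_at, 0.150). In Affymetrix naming the suffixes _x_at and _s_at mark probe sets with probes that also match other transcripts, and all 4 of H2-Aa have one. Cd74 was at -0.71, -0.18 and 0.19 (lowest, median and highest level) in Notch4-/- mice and at -0.29, 0.04 and 0.74 in WT mice. Its difference was -0.27 log2 (SE 0.0831, 95% interval -0.44 to -0.10, adjusted p = 0.0509 by limma). H2-Eb1, measured by 1 probe set without such a suffix, was at -0.45, -0.16 and 0.18 in Notch4-/- mice and at -0.16, 0.03 and 0.30 in WT mice. Its difference was -0.19 log2 (SE 0.0614, adjusted p = 0.0594 by limma). Both genes overlapped widely between the genotypes, with the lowest mouse of each in the Notch4-/- line. The 3 probe sets of H2-Ab1 differed by -0.25, -0.23 and -0.17 log2, with adjusted p values between 0.0579 and 0.153. Without Notch4-/- air mice 1 and 2 the differences were -0.25 log2 for Cd74 (adjusted p = 0.121 by limma), -0.15 log2 for H2-Eb1 (0.194) and -0.19, -0.18 and -0.13 log2 for H2-Ab1 (0.214 at the lowest).

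H2-DMa, Ctss and Ciita did not pass the test in the Notch4-/- line either. H2-DMa differed by -0.12 and -0.10 log2 over its 2 probe sets, Ctss by 0.03 log2, and Ciita by -0.01, 0.02 and 0.16 log2 over its 3. The last of these, 1447075_at, differed by 0.31 log2 without Notch4-/- air mice 1 and 2 (adjusted p = 0.153 by limma). Of all 15 probe sets 12 had a negative difference, with a median of -0.17 log2 against 0.00 log2 over all probe sets. At an unadjusted p under 0.05 there were 9 of 15, against 18.5% of all probe sets. The 15 probe sets stand for 7 genes, several of which varied together from mouse to mouse, so they are not 15 separate measurements.

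In Notch3-/- lungs Ctss rose against WT, and the chain genes lay near the WT level. Ctss was at -0.17, 0.27 and 0.58 (lowest, median and highest level) in 12 Notch3-/- mice, against -0.33, -0.08 and 0.16 in 12 WT mice. Some mice overlapped, but the Notch3-/- median lay above the highest WT mouse. The difference was 0.33 log2 (SE 0.0628, 95% interval 0.20 to 0.46, adjusted p = 0.000786 by limma) and it passed when any 1 of the 24 arrays was left out, with adjusted p values up to 0.00223. It was 1 of 15 probe sets called, against 5.68% of all probe sets. The 8 probe sets of H2-Aa, H2-Ab1 and H2-Eb1 differed from WT by between -0.05 and 0.07 log2. Their SEs were 0.0405 to 0.0980, so the intervals reached -0.25 at the lowest and 0.23 at the highest.

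Ciita came next in this comparison. By probe set 1421210_at it was at -0.11, 0.18 and 0.42 in Notch3-/- mice and at -0.50, -0.05 and 0.30 in WT mice, with wide overlap. The difference was 0.21 log2 (SE 0.0686, adjusted p = 0.0659 by limma). It would have passed without 1 of 5 arrays (Notch3-/- air mouse 2, 6 hr mouse 1 or 48 hr mouse 3, WT air mouse 1 or 48 hr mouse 1), the lowest adjusted p then being 0.0246. The other 2 Ciita probe sets differed by 0.22 and 0.11 log2, and H2-DMa by 0.10 and 0.16 log2. The median of the 15 was 0.03 log2, against 0.00 log2 over all probe sets, and 2 of 15 had an unadjusted p under 0.05, against 16.2%.

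Set directly against each other, the lines differed in Ctss and in H2-Aa. Neither line is a first-generation hybrid as the WT mice are, but strain background may still differ between the 2 lines and was not tested. Ctss was lower in Notch4-/- mice, at -0.68, -0.06 and 0.33, than in Notch3-/- mice, at -0.17, 0.27 and 0.58 (lowest, median and highest level). The difference was -0.30 log2 (SE 0.0628, 95% interval -0.43 to -0.17, adjusted p = 0.00978 by limma), and it passed when any 1 of 24 arrays was left out and without Notch4-/- air mice 1 and 2 (adjusted p = 0.0224). H2-Aa differed by -0.21 log2 with 1438858_x_at (adjusted p = 0.0258) and by -0.16 log2 with 1435290_x_at (adjusted p = 0.0397). For 1438858_x_at the levels were -0.40, -0.18 and 0.12 in Notch4-/- mice and -0.20, 0.07 and 0.28 in Notch3-/- mice. The ranges overlapped, with the 3 lowest mice of both lines together all Notch4-/-.

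These 3 calls of 15 compare with 1.09% of all probe sets, and 13 of 15 had an unadjusted p under 0.05, against 9.92%. The median of the 15 was -0.21 log2, against 0.00 log2 over all probe sets, and Ciita (1447075_at) was the 1 with a positive difference. The H2-Aa calls were the less firm. Without Notch4-/- air mice 1 and 2 the adjusted p was 0.0898 for 1438858_x_at and 0.130 for 1435290_x_at. The call of 1438858_x_at was also lost without 1 of 7 arrays: Notch3-/- air mouse 1, mouse 2 of the 6, 24 or 48 hr group, Notch4-/- air mouse 2, 6 hr mouse 1 or 48 hr mouse 1, with adjusted p values up to 0.0638. That of 1435290_x_at was lost in 18 of 24 such fits, with adjusted p values up to 0.0996.

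**Figure D2:**
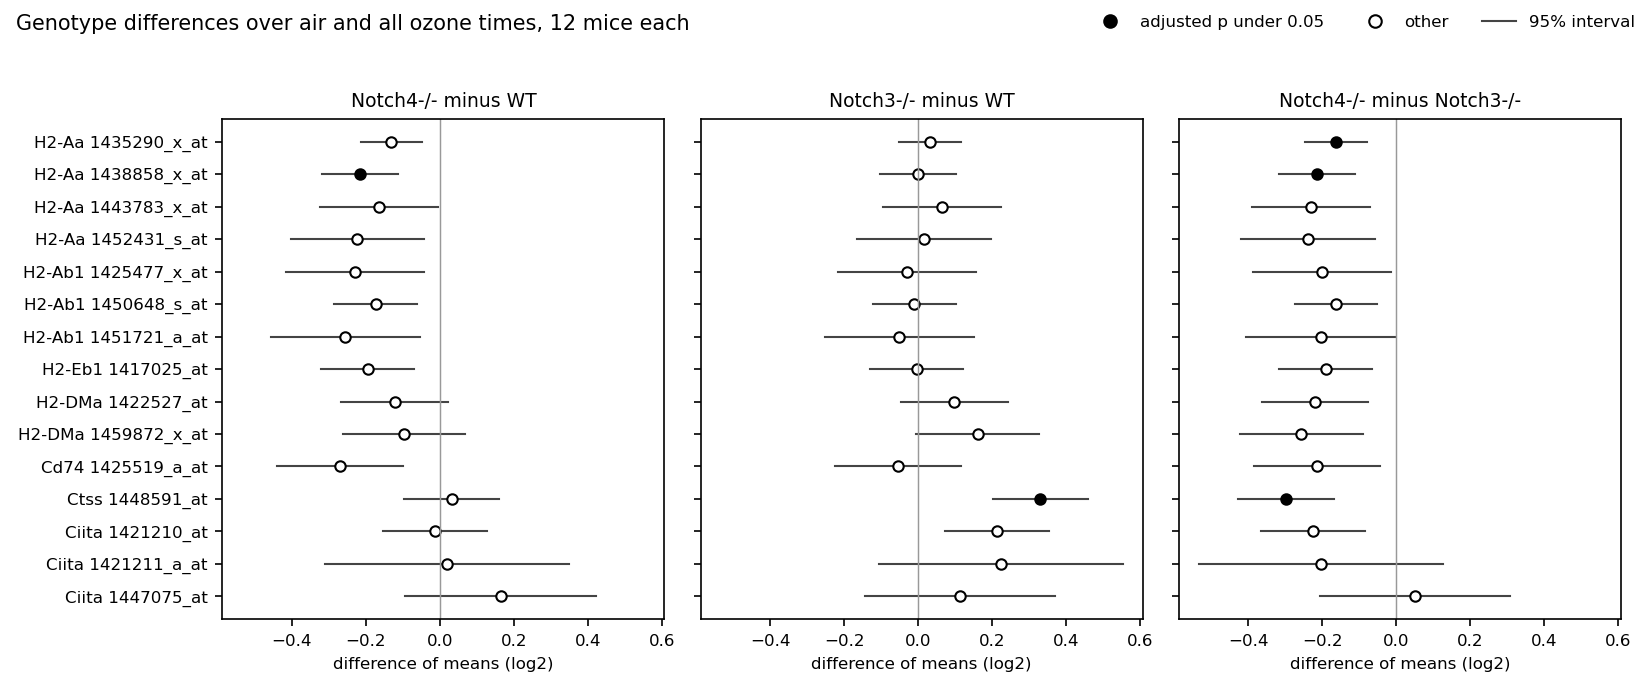
Difference between genotypes in the mean over air and all ozone times for each of 15 probe sets (x axis, log2; points, differences; lines, 95% intervals; 12 mice a genotype). Filled points passed the test: H2-Aa 1438858_x_at at -0.22 in Notch4-/- minus WT, Ctss at 0.33 in Notch3-/- minus WT, and Ctss at -0.30 with 2 probe sets of H2-Aa in Notch4-/- minus Notch3-/-.

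In air alone, with 3 mice against 3, no class II probe set passed the test in either line. The comparison asks how the lines differ before ozone. For Notch4-/- minus WT 0 of 15 were called by limma, against 0.482% of all probe sets, and 5 of 15 had an unadjusted p under 0.05, against 7.4%. H2-Aa (1435290_x_at) was at -0.20, -0.15 and -0.05 in Notch4-/- air mice and at 0.10, 0.11 and 0.10 in WT air mice. The 3 Notch4-/- mice all lay below the 3 WT mice, and the difference was -0.24 log2 (SE 0.0809, adjusted p = 0.342 by limma). H2-Eb1 was at -0.18, -0.20 and 0.05 in Notch4-/- air mice and at 0.21, 0.16 and 0.24 in WT air mice, again without overlap. Its difference was -0.31 log2 (SE 0.123, adjusted p = 0.496 by limma). How often 3 mice lay wholly apart from 3 others over all probe sets was not counted, here or in the ozone groups. In the Notch4-/- air group mouse 3 had the highest level of both genes, and mice 1 and 2 are the arrays with the intermediate Notch4 level. Without mice 1 and 2 the difference was -0.15 log2 for H2-Aa (1435290_x_at) and -0.15 log2 for H2-Eb1 (adjusted p = 0.641 and 0.794 by limma), and the median over the 15 probe sets was -0.12 log2, against -0.29 log2 with them.

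For Notch3-/- minus WT in air 0 of 15 were called by limma, against 0.486%, and 3 of 15 had an unadjusted p under 0.05, against 7.22%. All 3 of these were H2-Ab1. By probe set 1451721_a_at it was at 0.00, -0.62 and 0.04 in Notch3-/- air mice and at 0.21, 0.25 and 0.34 in WT air mice. Notch3-/- air mouse 2 was far below the rest, and the other 2 mice of its group were also below all WT mice. The difference was -0.46 log2 (SE 0.196, adjusted p = 0.607 by limma). Ctss differed by 0.25 log2 in Notch3-/- and by 0.23 log2 in Notch4-/- air mice, with adjusted p values of 0.693 and 0.755.

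Against air 2 of these probe sets passed the test for ozone, H2-Aa in the Notch3-/- line and Ctss in the Notch4-/- line. This share of calls was close to that over all probe sets, and neither call held under every alternative run. Over 9 comparisons of ozone with air 2 of 135 tests were called, both after 24 hr, which is 1.48%, against 1.16% over all probe sets. An unadjusted p under 0.05 was found in 23 of the 135 (17%), against 12.6%. In the Notch3-/- line H2-Aa (1443783_x_at) fell after 24 hr of ozone. Its levels were -0.42, -0.08 and 0.09 after ozone and 0.44, 0.43 and 0.43 in air, so that every ozone mouse lay below every air mouse. The difference was -0.57 log2 (SE 0.156, 95% interval -0.89 to -0.25, adjusted p = 0.0457 by limma). The other H2-Aa probe sets differed by -0.25, -0.15 and 0.08 log2 at that time. The call was lost when any 1 of the 6 arrays was left out (difference -0.68 to -0.42 log2, adjusted p 0.0538 to 0.199).

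In the Notch4-/- line Ctss fell after 24 hr of ozone. Its levels were -0.68, -0.17 and -0.34 after ozone and -0.08, 0.28 and 0.09 in air, again without overlap. The difference was -0.49 log2 (SE 0.126, 95% interval -0.75 to -0.24, adjusted p = 0.0439 by limma). It passed without air mouse 1 (adjusted p = 0.0484) and did not pass without air mouse 2 (0.0904), air mouse 3 (0.256) or 24 hr mouse 1 (0.155), 2 (0.0555) or 3 (0.0747). Without Notch4-/- air mice 1 and 2 together, which leaves 1 mouse in air, the difference was -0.49 log2 and the adjusted p 0.0819. After 48 hr the Ctss levels of this line were 0.09, 0.02 and 0.33, which overlapped those in air.

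By line and time the counts were these. In the Notch4-/- line 0, 1 and 0 of 15 probe sets were called at 6, 24 and 48 hr, against 0.00666%, 1.39% and 1.75% of all probe sets. In the Notch3-/- line 0, 1 and 0 of 15 were called, against 0.16%, 2.72% and 2.46%. In WT lungs none of the 15 was called at any time by limma, against 0%, 0.104% and 1.89%, and 0, 1 and 5 of 15 had an unadjusted p under 0.05, against 8.16%, 9.71% and 10.5%. The corresponding unadjusted counts were 2, 1 and 6 in Notch4-/- lungs, against 10.5%, 17.4% and 12.7%, and 3, 2 and 3 in Notch3-/- lungs, against 12.1%, 19.1% and 12.8%.

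After 48 hr the medians of the 15 ozone differences were -0.23 log2 in Notch4-/-, 0.12 log2 in Notch3-/- and -0.23 log2 in WT lungs, with medians over all probe sets of 0.01, -0.02 and -0.01 log2. In WT lungs H2-Ab1 (1450648_s_at) was at -0.04, -0.19 and -0.01 after 48 hr of ozone and at 0.26, 0.22 and 0.16 in air. Every WT ozone mouse lay below every WT air mouse, but the difference of -0.30 log2 (SE 0.109) had an adjusted p of 0.225 by limma. In Notch4-/- lungs H2-Eb1 was at -0.26, -0.45 and -0.39 after 48 hr and at -0.18, -0.20 and 0.05 in air, a difference of -0.26 log2 (SE 0.123, adjusted p = 0.367 by limma). Without Notch4-/- air mice 1 and 2 it was -0.42 log2 (adjusted p = 0.270), and the median over the 15 probe sets was -0.33 log2. In Notch3-/- lungs Ctss was at 0.40, 0.57 and 0.58 after 48 hr and at 0.14, -0.01 and 0.24 in air. These Ctss levels did not overlap, and the difference was 0.39 log2 (SE 0.126, adjusted p = 0.105 by limma). H2-DMa (1422527_at) differed by 0.41 log2 (adjusted p = 0.144) at that time, with levels of 0.31, 0.46 and 0.12 after ozone and 0.01, -0.43 and 0.09 in air.

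**Figure D3:**
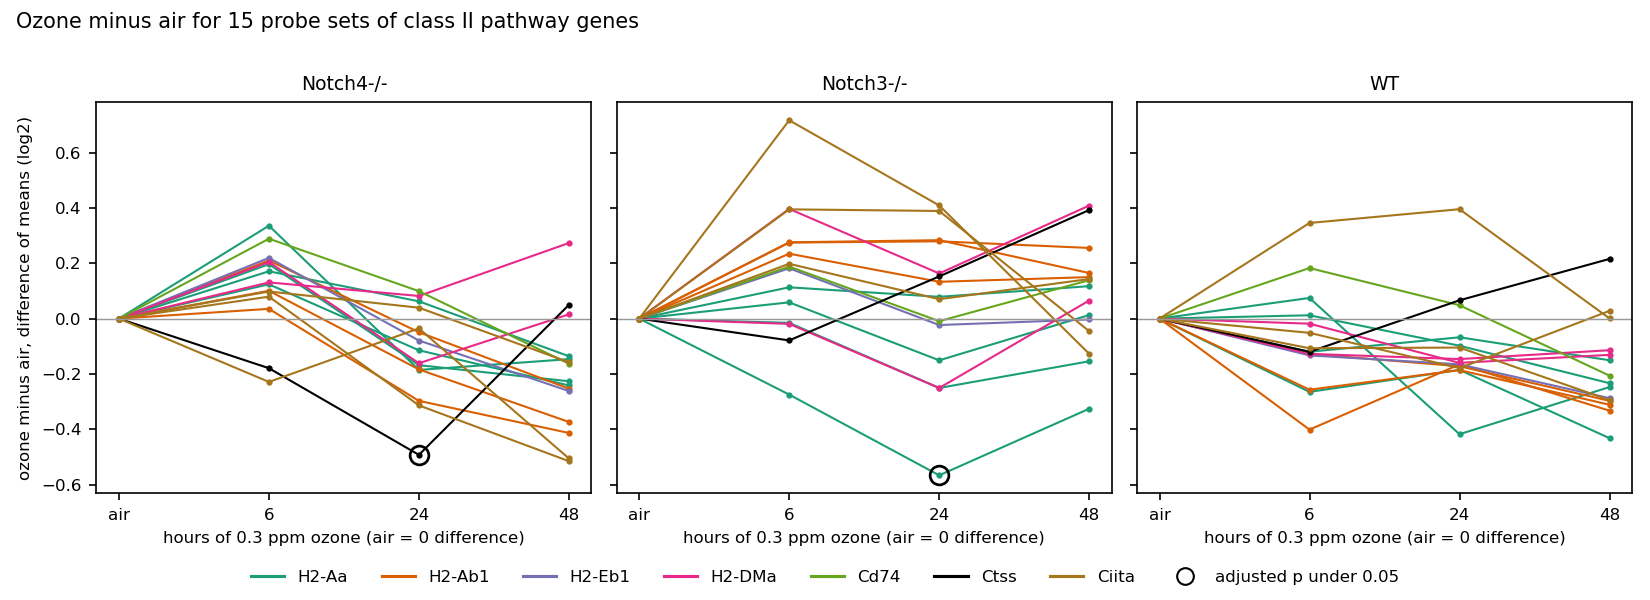
Ozone minus air difference of group means (y axis, log2) against hours of 0.3 ppm ozone (x axis, air placed at 0) for 15 probe sets in Notch4-/-, Notch3-/- and WT mice, 3 mice a group; rings mark the 2 calls. At 48 hr most lines lie below 0 in Notch4-/- and WT mice (12 of 15 in each), and 10 of 15 lie above 0 in Notch3-/- mice.

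Whether the ozone response differed between a knockout line and WT was tested as the difference of the 2 responses. Of 90 such tests 0 were called by limma and 13 had an unadjusted p under 0.05. At 6, 24 and 48 hr the counts called were 0, 0 and 0 of 15 for Notch4-/-, against 0%, 0% and 0.00222% of all probe sets, and 0, 0 and 0 of 15 for Notch3-/-, against 0.00888%, 0.00444% and 0.00222%. The unadjusted counts were 1, 1 and 0 for Notch4-/-, against 3.09%, 5.25% and 3.29%, and 5, 0 and 6 for Notch3-/-, against 4.86%, 10.2% and 2.89%. For Ctss at 24 hr the Notch4-/- response was lower than the WT response by a difference of -0.56 log2 (SE 0.178, 95% interval -0.92 to -0.20, adjusted p = 0.895 by limma). For H2-Ab1 (1450648_s_at) at 48 hr the Notch3-/- response minus the WT response was 0.45 log2 (SE 0.154, 95% interval 0.13 to 0.76, adjusted p = 1 by limma). These wide intervals do not show that the responses were alike.

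Mice of the same group differed from each other in these genes, and the chain genes did so together. The deviation of each mouse from its group mean was taken with 1 probe set per gene. Among H2-Aa, H2-Ab1, H2-Eb1, H2-DMa and Cd74 the correlation of these deviations ran from 0.66 to 0.93 over the 10 pairs of genes, with a median of 0.83 (36 arrays, a description with no test). The points share the array, so RNA quality and dissection enter every gene alike. The partner chains H2-Aa (1452431_s_at) and H2-Ab1 (1451721_a_at) had the highest value, 0.93. Ciita (1421210_at), which switches these genes on, correlated with the 5 at 0.40 to 0.65. Ctss did so at 0.09 to 0.34.

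The mean of these 5 genes gives the level of the set in each mouse. In Notch3-/- air mice it was 0.08, -0.36 and 0.07, and in Notch3-/- mice after 48 hr of ozone it was 0.11, 0.36 and -0.18. In WT mice after 6 hr of ozone it was 0.00, -0.23 and 0.35. Single mice thus lay up to 0.58 log2 apart within a group of 3. The smallest such range was 0.07 log2, in WT mice after 24 hr of ozone. WT air mice, at 0.17, 0.15 and 0.26, were among the most even groups. After 48 hr of ozone the 5-gene mean was -0.17, -0.47 and -0.35 in Notch4-/- mice and -0.10, -0.13 and -0.02 in WT mice, and these mice did not overlap. Nor did they in air (-0.24 to 0.03 against 0.15 to 0.26) or after 24 hr (-0.40 to -0.11 against 0.02 to 0.09). After 6 hr they overlapped (-0.02 to 0.19 against -0.23 to 0.35). The 5-gene mean was not tested, and how often groups lay apart over other genes was not counted.

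**Figure D4:**
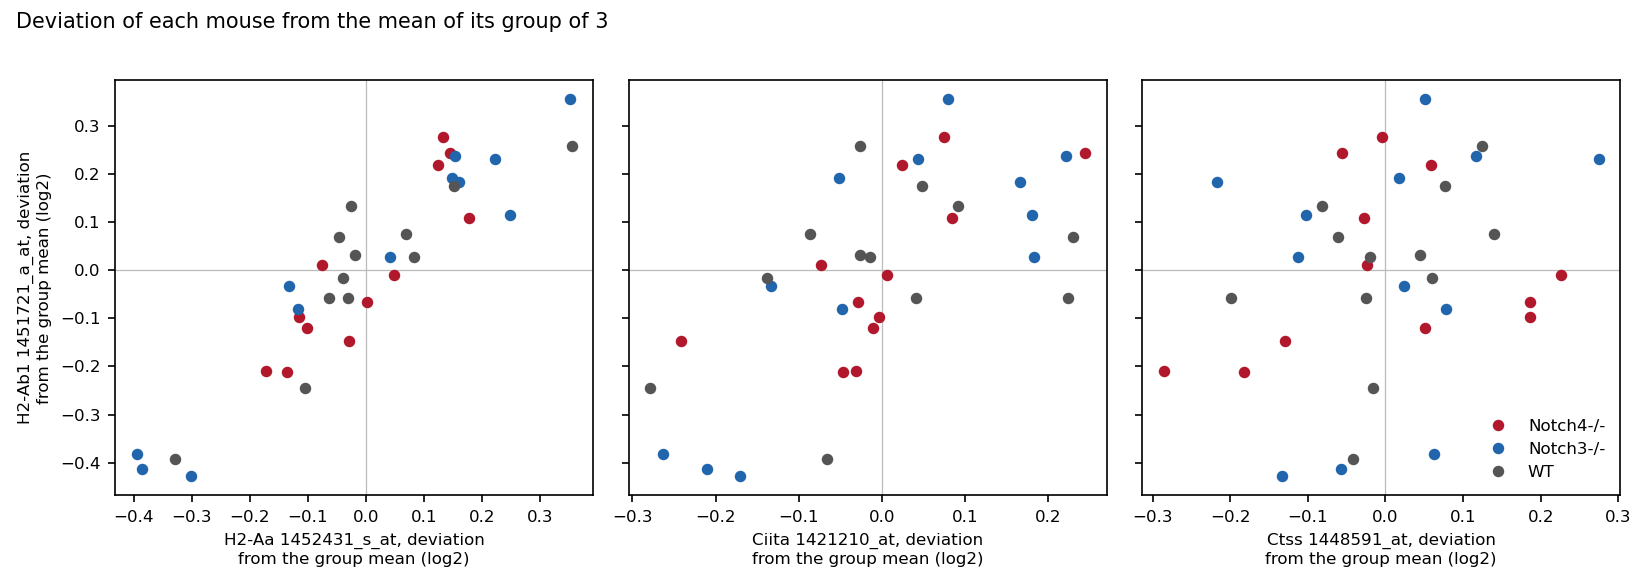
Deviation of each of 36 mice from the mean of its group of 3 (log2 on both axes) for H2-Ab1 (y axis) against H2-Aa, Ciita and Ctss (x axes), colored by genotype. The points lie along a line for H2-Aa (correlation 0.93), spread more for Ciita (0.65) and show little relation for Ctss (0.28).

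Probe sets of the same gene did not always follow each other. The 3 of H2-Ab1 correlated within groups at 0.80 to 0.96. The H2-Aa probe set among the 5 genes above, 1452431_s_at, was not called in any comparison. H2-Aa 1438858_x_at and 1435290_x_at, which carried the genotype calls, correlated with the 5 genes at 0.43 to 0.66 and at 0.57 to 0.74. H2-Aa 1443783_x_at, which carried the ozone call, correlated with the 5 genes at 0.06 to 0.37, and the second H2-DMa probe set (1459872_x_at) at -0.11 to 0.37. The 2 H2-DMa probe sets correlated with each other at 0.16. Their levels therefore cannot be read as 1 measurement of the same transcript.

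Genes outside the list that varied most like the member mean within groups were Cst3, which encodes the cathepsin inhibitor cystatin C (0.78), Cd8a, a T cell and dendritic cell surface protein (0.78), Rac2, a GTPase of blood cells (0.77), Cd247, a chain of the T cell receptor complex (0.77), and Prelid1 (0.77). Over the 12 group means the nearest were Trbv1 (0.87), Tenm4 (0.85), Enpp5 (0.85), Psap (0.84) and Zfp36l2 (0.83). Of the marker lists, the mean of 10 dendritic cell markers correlated with the mean of the 5 chain genes at 0.61 within groups, that of 7 T cell markers at 0.58, that of 8 B cell markers at 0.45, that of 8 monocyte and interstitial macrophage markers at 0.34, that of 7 alveolar type 2 markers at 0.32 and that of 7 alveolar macrophage markers at 0.16. The mean of 5 neutrophil markers correlated at 0.35, of 9 other lung markers at 0.12 and of 8 skeletal muscle markers at 0.09. The mean of 15 class I genes correlated at 0.69.

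In Notch4-/- lungs neutrophil markers and the complement C1q genes of macrophages were higher than in WT lungs, and B cell markers lay above WT with 1 of 8 called. These counts compare with the 5.76% of all probe sets called. Of 10 dendritic cell markers 0 were called in Notch4-/- against WT lungs over all exposures (median difference 0.03 log2), of 7 T cell markers 0 (-0.06), of 7 alveolar type 2 markers 0 (0.01) and of 8 skeletal muscle markers 0 (0.03). Of 8 B cell markers, with a median difference of 0.40 log2, 1 was higher, Fcmr, the IgM receptor, by 0.64 log2 (SE 0.170, adjusted p = 0.0204 by limma), and 6 of 8 passed the test, all higher, without Notch4-/- air mice 1 and 2. The summed level of the B cell list, as a mean over its 8 genes, ranged over the groups from -0.11 to 0.34 in Notch4-/- and from -0.39 to -0.07 in WT lungs. Of 8 monocyte and interstitial macrophage markers C1qa, C1qb and C1qc, the chains of complement C1q, were higher, C1qa by 0.48 log2 (adjusted p = 0.000146), of 7 alveolar macrophage markers Krt79 was lower, and of 9 other lung markers Ager was lower. With Notch4-/- air mice 1 and 2 left out C1qb was not called (adjusted p = 0.0610) and Sftpb, an alveolar type 2 marker, was lower (difference -0.27 log2, adjusted p = 0.0332). All 5 neutrophil markers were higher, with a median of 0.58 log2. Their part in the H2-Aa result was not tested.

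In Notch3-/- against WT lungs, the comparison that called Ctss, the same lists gave 2 of 10 dendritic cell markers higher, Clec10a by 0.60 log2 (adjusted p = 0.000432) and Cd209a. The counts in this comparison stand against 5.68% of all probe sets called. Fcmr was higher by 0.60 log2 (adjusted p = 0.0303), 0 of 7 T cell and 0 of 7 alveolar type 2 markers were called, and Pparg was higher and Krt79 and Marco lower among 7 alveolar macrophage markers. C1qa, C1qb and C1qc were higher, C1qa by 0.69 log2 (adjusted p = 4.57e-07), as were all 5 neutrophil markers, with a median of 1.01 log2. Of 9 other lung markers Pdpn was higher and Ager lower, and of 8 skeletal muscle markers 0 were called. In Notch4-/- against Notch3-/- lungs Chil3, Pparg and Siglecf of the alveolar macrophage list, Mrc1 of the monocyte and interstitial macrophage list and Pdpn were lower, and no marker was higher. Of all probe sets 1.09% were called between these lines. With Notch4-/- air mice 1 and 2 left out Siglecf was not called (adjusted p = 0.0940), and Siglec1, C1qc and Csf1r were lower (adjusted p = 0.0432, 0.0191 and 0.00707). Macrophages and dendritic cells are known sources of cathepsin S, and the part of these markers in the Ctss results was not tested.

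Other steps of the class II route showed few calls. Of 5 further class II genes, H2-DMb2, H2-Oa, H2-Ob, H2-Ea and H2-Eb2, 0 were called by limma in any of the 20 comparisons with all arrays. Some of their 24 hr ozone differences in Notch4-/- lungs depended on Notch4-/- air mice 1 and 2. Without these mice they were -1.62 log2 for H2-DMb2, -1.06 log2 for H2-Oa and -1.77 log2 for H2-Ob. With them they were -0.82, -0.45 and -0.63 log2. The fit without them rests on 1 air mouse, so it cannot decide whether these genes fell. H2-Oa and H2-Ob, the chains of H2-DO that holds H2-DM in check, differed by 0.04 and 0.30 log2 in Notch4-/- and by 0.02 and 0.10 log2 in Notch3-/- against WT lungs. Of 7 factors of the promoter complex Rfxank, a subunit of RFX, was lower in Notch3-/- against WT lungs by a difference of -0.25 log2 (SE 0.0586, adjusted p = 0.00711), and it differed by -0.18 log2 (adjusted p = 0.0639) in Notch4-/- lungs. Nfyb, a subunit of NF-Y, was higher after 24 hr of ozone in Notch3-/- lungs by 0.68 log2 (SE 0.181, adjusted p = 0.0384). Of 14 genes of the interferon-gamma route to Ciita, Ifngr2, a chain of the interferon-gamma receptor, was higher in that same comparison by 1.06 log2 (SE 0.233, adjusted p = 0.0130), and none was called between genotypes. Of all probe sets 2.72% were called in that ozone comparison. Against WT over all exposures 5.68% were called in Notch3-/- and 5.76% in Notch4-/- lungs.

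Among 11 endosomal genes, the cathepsins Ctsl and Ctsh were called. Ctsl, cathepsin L, was higher than in WT lungs by 0.63 log2 in Notch4-/- lungs (SE 0.0714, adjusted p = 4.55e-07) and by 0.75 log2 in Notch3-/- lungs (SE 0.0714, adjusted p = 1.82e-08). Ctsh, cathepsin H, was higher after 48 hr of ozone by 0.66 log2 in Notch4-/- (adjusted p = 0.00657), 0.51 log2 in Notch3-/- (0.0310) and 0.69 log2 in WT lungs (0.00252), with SE 0.132 each. Of all probe sets 1.75%, 2.46% and 1.89% were called in these 3 ozone comparisons. Of 7 co-stimulation genes Cd274, which encodes the inhibitory ligand PD-L1, was higher by 0.52 log2 in Notch3-/- than in WT lungs (SE 0.0543, adjusted p = 8.19e-08) and lower in Notch4-/- than in Notch3-/- lungs (difference -0.41 log2, adjusted p = 1.98e-05). The shares of all probe sets called were 5.76% for Notch4-/- and 5.68% for Notch3-/- against WT, and 1.09% between the lines.

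The class I route, which loads peptides made in the cytosol for CD8 T cells, held more calls in both lines. Of 15 class I genes 6 were higher and 1 lower in Notch4-/- lungs, with a median of 0.16 log2, and 8 were higher and 1 lower in Notch3-/- lungs, with a median of 0.22 log2. Over all probe sets 5.76% and 5.68% were called in these 2 comparisons with WT. Both comparisons use the same WT mice. Nlrc5, the class I counterpart of Ciita, was higher by 1.01 log2 in Notch4-/- lungs (SE 0.124, adjusted p = 2.01e-06) and by 1.37 log2 in Notch3-/- lungs (SE 0.124, adjusted p = 7.2e-09). Tap1, a chain of the peptide transporter, was higher by 0.28 log2 (adjusted p = 0.0384) and by 0.55 log2 (adjusted p = 4.2e-05) in the same 2 lines. Tap1, Psmb8 and Psmb9, which encode the transporter chain and 2 immunoproteasome subunits, lie among the class II genes, with 12, 11 and 13 protein-coding genes between them and Notch4. Psmb8 was higher by 0.28 log2 (adjusted p = 0.0330) and Psmb9 by 0.33 log2 (adjusted p = 0.0490) in Notch4-/- lungs. Without Notch4-/- air mice 1 and 2 Tap1 was not called in that line (adjusted p = 0.0759) and Psmb10, another such subunit, was higher (0.21 log2, adjusted p = 0.0398). The 1 gene that was lower in both lines was H2-M3, a class I molecule for bacterial peptides, named after its values were seen. It differed by -0.47 log2 in Notch4-/- and by -0.38 log2 in Notch3-/- lungs (SE 0.0748 each, adjusted p = 0.000116 and 0.00115). Between the 2 lines 0 of the 15 class I genes were called by limma, against 1.09% of all probe sets, with a median of -0.11 log2. Whether class I and class II genes differed from each other in these shifts was not tested.

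**Figure D5:**
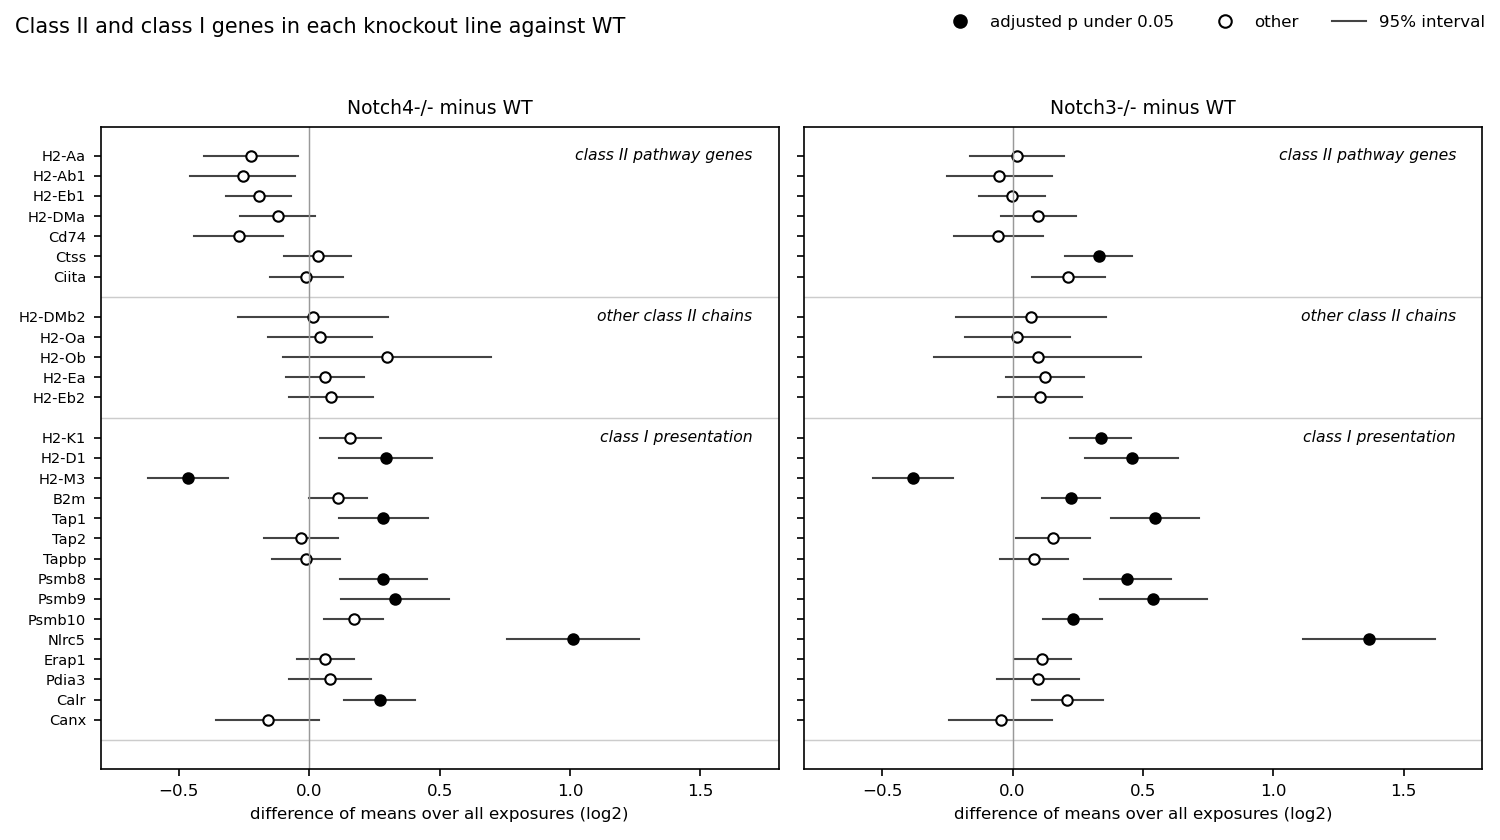
Difference from WT in the mean over air and all ozone times (x axis, log2; points, differences; lines, 95% intervals; 12 mice a genotype) for 7 class II pathway genes, 5 other class II chains and 15 class I genes, 1 probe set per gene. Filled points passed the test: 6 class I genes at 0.27 to 1.01 and H2-M3 at -0.47 in Notch4-/- lungs, and 8 class I genes at 0.22 to 1.37, H2-M3 at -0.38 and Ctss at 0.33 in Notch3-/- lungs; the H2-Aa probe set that was called in Notch4-/- lungs is not the 1 drawn here.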

How the data were processed

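Total RNA of 36 left lungs was hybridised by the authors to Affymetrix whole-genome mouse arrays. The deposited log2 values were made by the authors with RMA in GeneSpring GX 11.0. Every probe set was centred on its median over the arrays, which was found in the values (largest absolute median 5e-07). No replicate origin beyond 1 mouse per array was assumed. Medians of the arrays ran from -0.028 to 0.028 and their SDs from 0.164 to 0.426, and no 2 arrays were duplicates. The 2 lowest SDs were those of Notch4-/- air mice 2 and 1 (0.164 and 0.207), the arrays with the intermediate Notch4 level. Precision is set by how many arrays there are, with a median SE of 0.139 log2 for 3 mice against 3 and of 0.0695 log2 over all exposures.

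The 12 group means were fitted with limma 3.58.1 in R 4.3.3 to 45037 probe sets, without 64 control probe sets. The 20 comparisons were adjusted one by one by the Benjamini-Hochberg method, with a threshold of 0.05, after a test on simulated data. Symbols came from the platform annotation: 34945 probe sets had 1 symbol, 932 several and 9160 none. One probe set per gene was used for the other lists, so whether further probe sets of the same gene differed alike was not tested. At most 4 called genes per list and comparison were named, those with the smallest adjusted p. The genes and lists were chosen with earlier results of these data known. Alternatives were other normalizations, weights, priors, filters and adjustments, a replicate block, ANOVA with the Tukey test as in the study's methods, and leaving out arrays.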

Additional observations from a re-analysis of the deposited data

How the results depend on the processing

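No difference of a called class II probe set changed its direction under any alternative run. The counts of called probe sets that moved were these. For Notch4-/- minus WT over all exposures the count was 1, and it was 2 after a further quantile normalization, 2 after median centring of the arrays, 2 with only the arrays of the compared genotypes, 4 with array weights and 3 with the replicate number as a block. For Notch4-/- minus Notch3-/- the count was 3, and it was 9 with array weights, 1 without the probe sets of low SD and 1 without Notch4-/- air mice 1 and 2. For Notch3-/- minus WT over all exposures it was 1, and 2 with array weights. For Notch4-/- minus WT in air it was 0, and 4 with array weights. For ozone after 24 hr in Notch4-/- lungs the count of 1 was 0 with array weights, adjustment over all comparisons, ANOVA with the Tukey test, the compared genotypes alone, or without Notch4-/- air mice 1 and 2, a fit with 1 mouse left in that air group and its spread assumed from the other groups. After 24 hr in Notch3-/- lungs the count of 1 was 0 after median centring of the arrays, adjustment over all comparisons, the Tukey test or the compared genotypes alone, and after 48 hr the count of 0 was 2 with array weights. The cause of these shifts was not tested. A robust prior changed no count. The filter on SD took H2-Aa 1438858_x_at and 1435290_x_at out before testing, so it could not check their calls. For Notch4-/- minus WT over all exposures the 1 call under that filter was of another probe set.

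Leaving out 1 array gave 1 to 4 called probe sets for Notch4-/- minus WT over all exposures (4 without WT 6 hr mouse 2 or Notch4-/- air mouse 3), 1 to 2 for Notch3-/- minus WT, 1 to 3 for Notch4-/- minus Notch3-/-, 0 to 1 for Notch4-/- after 24 hr, and 0 in every fit for the other 16 comparisons, Notch3-/- after 24 hr included. The deviations of arrays with the same replicate number in different groups correlated at a median of 0.0744 over 198 pairs. Those with different numbers did so at -0.0500 over 396 pairs. The correlation was over 0.1 in 44.9% and 29.5% of these pairs. Whether arrays of the same number share a source of variation was not tested. Apart from the count given above, the replicate block changed no other count. The Tukey test was not run for the differences of responses. With 3 mice a group, an ozone difference near the median SE of 0.139 log2 cannot be told from no difference, and centred values give no detection limit. Much larger differences also failed the test, among them 0.41 log2 for H2-DMa (1422527_at) after 48 hr in Notch3-/- lungs.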
